A study of Mus musculus with 6 samples.

Results

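The matrix metalloproteases (MMPs) and their inhibitors, the TIMPs (tissue inhibitors of metalloproteases), were followed by total RNA sequencing of mammary glands taken whole from female, virgin mice of the FVB strain. The 10 genes described are Mmp2, Mmp3, Mmp11, Mmp14, Mmp19, Mmp23, Timp1, Timp2, Timp3 and Timp4, taken from the count table by their GENCODE M21 symbol; all 10 were found among its 55450 genes and all 10 passed the filter on low counts. The series holds 3 libraries of Hpn-/- glands, from a line that CRISPR/Cas9 had made deficient in hepsin, and 3 libraries of wild-type (WT) glands. Among the Hpn-/- libraries the age was 6 weeks for replicates 1 and 2 and 5 weeks for replicate 3. Among the WT libraries it was 2 weeks for replicate 1, 6 weeks for replicate 2 and 5 weeks for replicate 3. Hepsin is a serine protease anchored in the membrane of epithelial cells, and the comparison asks which transcripts differ between glands with and without an intact hepsin gene.

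MMPs are zinc-dependent endopeptidases that cut collagens, laminins, proteoglycans and other proteins of the extracellular matrix. They are made as inactive zymogens, and a propeptide must be removed before they can cut. TIMPs bind to the active site and block it, and Timp2 protein also serves as the bridge through which the membrane-bound MMP14 activates the zymogen of MMP2 at the cell surface. In the growing mouse mammary gland these genes are known mainly from the stroma around the ducts, where MMP2 promotes the invasion of terminal end buds and MMP3 promotes side branching.

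Counts summed to between 11829392 and 18807615 in the Hpn-/- libraries and to between 10971661 and 14207461 in the WT libraries, and the predicted gene Gm42418 with the genes annotated as ribosomal RNA took 63.2% to 68.5% of them. Hpn itself had 12 counts over the Hpn-/- libraries and 22 over the WT libraries, and its level was 0.277 ± 0.0136 CPM and 0.588 ± 0.260 CPM (SD, n = 3 each; CPM are counts divided by the library total, corrected with TMM factors), too low for the filter and thus too low to check the labels. The tissue markers were present: summed levels ran from 1520 to 1790 CPM in Hpn-/- and from 1460 to 1790 CPM in WT glands for 7 adipocyte genes, from 429 to 511 and from 477 to 653 CPM for 9 fibroblast genes, from 43.2 to 64.6 and from 43.7 to 54.5 CPM for 8 luminal epithelial genes, and from 23.7 to 34.2 and from 22.6 to 27.3 CPM for 6 basal epithelial genes. The sums for 6 macrophage genes were 111 to 132 CPM in Hpn-/- and 116 to 153 CPM in WT glands. For 5 endothelial genes they were 125 to 156 and 138 to 153 CPM. For 6 T cell genes they were 62.0 to 80.2 and 48.9 to 64.0 CPM, and for 5 B cell genes 23.7 to 35.0 and 16.8 to 22.2 CPM. The B cell sums thus did not overlap between the genotypes. All 5 B cell genes and 3 of the 6 T cell genes were higher at an edgeR unadjusted p under 0.05. Of all tested genes 3.98% were, and no B or T cell gene passed after adjustment. The summed level of 6 skeletal muscle genes differed most between libraries, at 852, 211 and 12.8 CPM in Hpn-/- replicates 1, 2 and 3 and at 556, 85.7 and 40.1 CPM in WT replicates 1, 2 and 3. Such sums follow their most abundant genes. By sign, 4 of the 9 fibroblast genes were higher in Hpn-/- glands and 5 lower. Their mean log2 CPM, centred on all 6 libraries, was 0.01, -0.02 and -0.12 in Hpn-/- replicates 1, 2 and 3. In WT replicates 1, 2 and 3 it was 0.30, -0.10 and -0.07. The 5 tested basal genes were at 0.51, 0.27 and -0.53 in Hpn-/- and at 0.01, 0.13 and -0.38 in WT libraries, in replicate order. In bulk tissue, fewer cells of a type and less RNA per cell cannot be told apart.

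Between genes, levels were compared as CPM per kilobase of exon, averaged over all 6 libraries. Timp2 stood highest at 22.7 ± 4.05 CPM per kb (SD, n = 6), and Mmp2, the gelatinase that cuts denatured collagen and collagen IV, followed at 17.3 ± 2.88 CPM per kb. Mmp14, which encodes the membrane-anchored MT1-MMP, lay at 6.23 ± 0.971 CPM per kb and Timp3, whose protein is bound to the matrix and also inhibits ADAM proteases, at 5.96 ± 0.731 CPM per kb. These neighbours did not differ beyond their spread, since Mmp14 lay above Timp3 in 3 of 6 libraries. The 3 components of the surface activation complex, Timp2, Mmp2 and Mmp14, were thus the highest by mean.

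Mmp19 followed at 3.48 ± 0.474 CPM per kb, below Timp3 and above Mmp23 in 6 of 6 libraries. The remaining members were close to each other: Mmp23 was at 1.38 ± 0.439, Timp1 at 1.10 ± 0.740, Mmp3 at 0.892 ± 0.330, Timp4 at 0.799 ± 0.193 and Mmp11 at 0.469 ± 0.118 CPM per kb. In this group Mmp23 exceeded Timp1 in 5 of 6 libraries, Timp1 exceeded Mmp3 in 4, Mmp3 exceeded Timp4 in 3 and Timp4 exceeded Mmp11 in 6. Timp1 was the most variable member, with a 10.5-fold range between its highest and lowest library. Mmp3 had the next widest range at 2.36-fold, and Mmp19 had a 1.37-fold range. Timp1 had 2 to 27 counts per library and Mmp3 13 to 30, against 114 to 195 for Mmp19. Counting error thus weighs more in the wide ranges than in that of Mmp19.

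**Figure D1:**
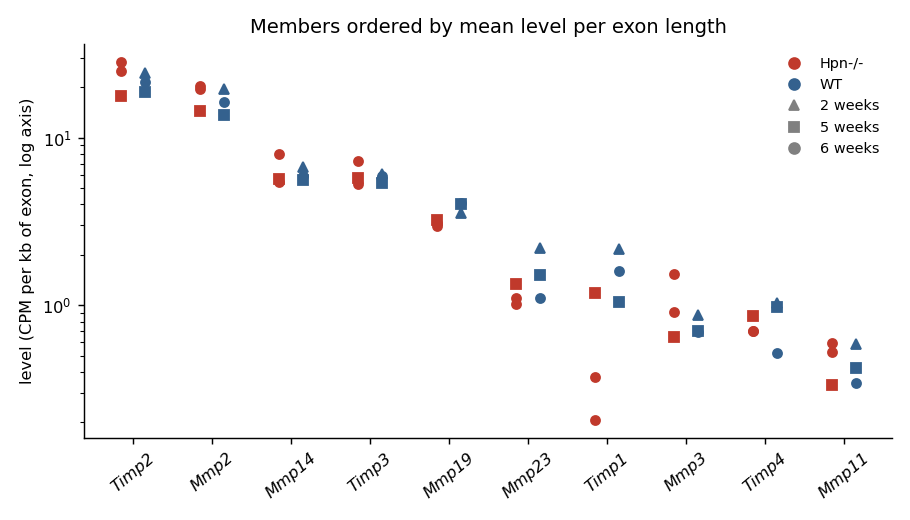
Levels of the 10 genes in each library, in CPM per kb of exon on a log axis, ordered by their mean over 6 libraries; red points are Hpn-/- and blue points WT libraries, and the marker shape gives the age. Timp2 and Mmp2 lie above all other members in every library, and the 2 lowest Timp1 points are the Hpn-/- libraries of 6 weeks.

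The promoters of 3 members are shown: Mmp3 is an MMP known to be inducible and was the next most variable after Timp1, Timp1 is the member that varied most and Timp2 is the most abundant. Each run holds the 250 bases before the RefSeq start site on GRCm38.p6, 5′ to 3′ on the strand of the gene. Capitals mark matches, on either strand, to the AP-1 motif TGANTCA, the TATA motif TATAAA or the Sp1 motif GGGCGG. Mmp3 lies at chr9:7445572-7445821 on the plus strand, Timp1 at chrX:20869916-20870165 on the plus strand and Timp2 at chr11:118355412-118355661 on the minus strand.
Mmp3: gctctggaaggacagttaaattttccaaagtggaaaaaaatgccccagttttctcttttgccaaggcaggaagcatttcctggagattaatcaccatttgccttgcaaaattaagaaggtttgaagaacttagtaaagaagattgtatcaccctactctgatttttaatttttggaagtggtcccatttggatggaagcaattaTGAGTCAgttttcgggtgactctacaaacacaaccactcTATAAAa
Timp1: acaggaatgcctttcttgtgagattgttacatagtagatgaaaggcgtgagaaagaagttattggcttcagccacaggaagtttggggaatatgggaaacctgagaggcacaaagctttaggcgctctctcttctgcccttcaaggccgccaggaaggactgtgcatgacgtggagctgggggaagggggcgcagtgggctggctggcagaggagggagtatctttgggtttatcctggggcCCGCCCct
Timp2: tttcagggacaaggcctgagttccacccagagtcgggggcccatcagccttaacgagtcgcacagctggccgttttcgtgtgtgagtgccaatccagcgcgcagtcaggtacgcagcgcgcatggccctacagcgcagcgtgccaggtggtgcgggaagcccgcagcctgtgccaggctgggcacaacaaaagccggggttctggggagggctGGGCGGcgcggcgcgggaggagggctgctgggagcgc
Mmp3 held 1 AP-1 match, starting 46 bases before the start site, and 1 TATA match, starting 7 bases before it. Timp1 held 1 Sp1 match 8 bases before its start site, on the opposite strand, and Timp2 held 1 Sp1 match 37 bases before it. RefSeq windows were found for 8 of the 10 members, without Mmp2 and Mmp19. Among these 8, Mmp3 was the member with the AP-1 or the TATA match, while Mmp11, Mmp14, Timp1, Timp2 and Timp3 held the Sp1 motif and Mmp23 and Timp4 held none of the 3 motifs. Over all 32851 windows of this length, 6.75% held the AP-1 motif, 12.4% the TATA motif and 32.7% the Sp1 motif. A match is a description of these letters and not evidence of binding.

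None of the 10 members passed the genotype test. With edgeR's quasi-likelihood test and Benjamini-Hochberg adjustment over 12520 genes, 0 members had an adjusted p under 0.05, and 2 genes of the whole table did (0.016%). At an unadjusted p under 0.05, 2 members were lower (Timp1 and Mmp19) and 0 were higher, where 6.88% of all genes reached this level, 2.9% lower and 3.98% higher. DESeq2 and limma-voom also called 0 members, with 1 and 2 members at an unadjusted p under 0.05. By sign alone 6 members had higher and 4 lower values in Hpn-/- glands, where 49.1% of all tested genes were lower. The median log2 fold change (Hpn-/- over WT) was 0.06 for the 6 Mmp genes and -0.04 for the 4 Timp genes. For all tested genes it was 0.00. Each library carries its own identifier in the labels, which do not describe the sampling of animals further, and p-values measure the spread between these libraries.

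**Figure D2:**
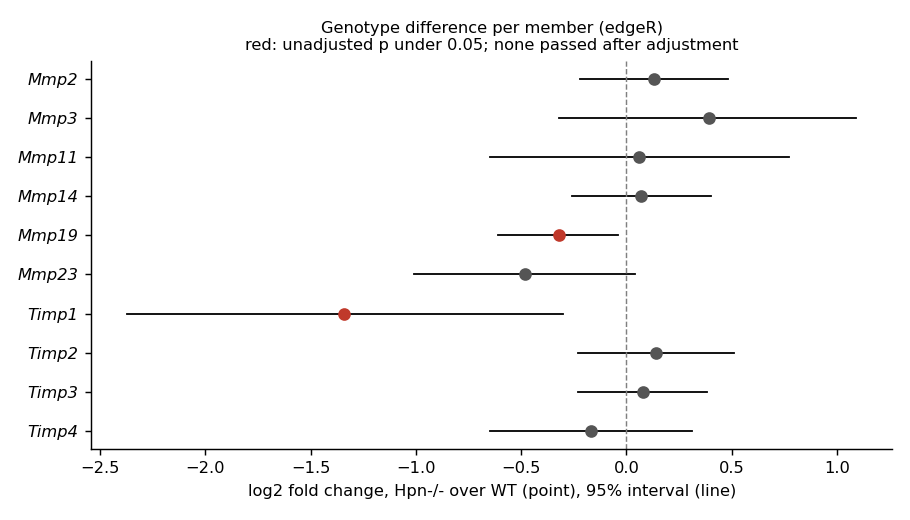
Log2 fold change of each member (Hpn-/- over WT, edgeR, n = 3 each) as a point with its 95% interval as a line; red points have an unadjusted p under 0.05. The Timp1 interval, from -2.37 to -0.30, is the widest, and the intervals of Mmp2, Mmp14, Timp2 and Timp3 lie within 0.51 of 0.

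Timp1, the inhibitor that is secreted in soluble form and often induced in growing or injured tissue, had the lowest fold change. It had 5, 2 and 18 counts in Hpn-/- replicates 1, 2 and 3, and 27, 15 and 11 counts in WT replicates 1, 2 and 3. The levels were 0.330, 0.183 and 1.05 CPM in Hpn-/- replicates 1, 2 and 3, against 1.92, 1.43 and 0.923 CPM in WT replicates 1, 2 and 3. Hpn-/- replicates 1 and 2 lay below every WT library, while Hpn-/- replicate 3 lay above WT replicate 3, so that the groups overlapped. The mean was 0.521 ± 0.463 CPM in Hpn-/- and 1.43 ± 0.500 CPM in WT glands (SD, n = 3 each), and its log2 fold change was -1.34 (SE 0.487, unadjusted p = 0.0149, edgeR adjusted p = 0.606).

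Set by age, the Hpn-/- libraries lay below WT at 6 weeks and not at 5 weeks. At 6 weeks the exact 95% counting intervals were 0.107 to 0.771 CPM for Hpn-/- replicate 1 and 0.0222 to 0.662 CPM for Hpn-/- replicate 2, both below the interval of 0.802 to 2.36 CPM for WT replicate 2. At 5 weeks they were 0.622 to 1.66 CPM for Hpn-/- replicate 3 and 0.461 to 1.65 CPM for WT replicate 3, which overlap almost fully. These intervals cover counting error only. In an edgeR fit of the 5 libraries of 5 and 6 weeks with an interaction of genotype and age, chosen after seeing the data, the log2 fold change was -2.38 at 6 weeks and 0.18 at 5 weeks. Their difference of -2.57 did not pass over the 12835 genes of that fit. Each age has 1 WT library, and 5 weeks has 1 Hpn-/- library, so only the Hpn-/- libraries of 6 weeks are replicated there. That fit thus measures no spread between WT libraries of an age, and only the effect size is given.

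Leaving out Hpn-/- replicate 3 turned Timp1 into a call, at a log2 fold change of -2.39 (edgeR adjusted p = 0.0223), in a fit that called 111 genes lower (0.859% of those tested). Only 6-week Hpn-/- libraries then remain, against WT libraries of 2, 5 and 6 weeks, and genotype and age are partly confounded. Without any other single library Timp1 stayed between -1.58 and -1.02 with adjusted p of 0.634 or more. Among the 5 libraries of 5 and 6 weeks with age as a covariate it was at -1.0 (adjusted p = 0.849), and with the filter of at least 1 CPM in 3 libraries it was not tested.

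**Figure D3:**
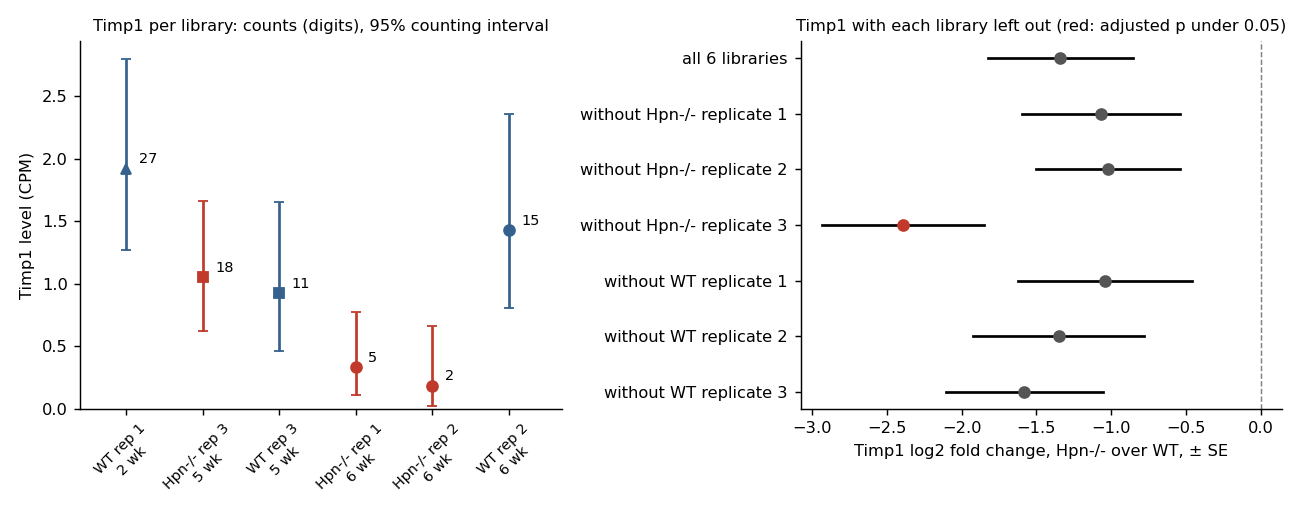
Left, Timp1 level in CPM per library, ordered by age, with its count in digits and the exact 95% counting interval as bars; right, its log2 fold change (Hpn-/- over WT, ± SE) with all 6 libraries and with each left out. The Hpn-/- libraries of 6 weeks (5 and 2 counts) lie lowest, and the red point marks the fit without Hpn-/- replicate 3.

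Mmp19, a secreted MMP that cuts basement membrane proteins, was the member whose groups did not overlap. It was at 10.9, 10.5 and 11.4 CPM in Hpn-/- replicates 1, 2 and 3, against 12.6, 14.3 and 14.2 CPM in WT replicates 1, 2 and 3. All 3 Hpn-/- libraries lay below all 3 WT libraries, as was the case for 5.04% of all genes; the opposite held for 0 members and 5.94% of all genes. The mean was 10.9 ± 0.455 CPM in Hpn-/- and 13.7 ± 0.958 CPM in WT glands (SD, n = 3 each), and its log2 fold change was -0.32 (SE 0.133, unadjusted p = 0.0263, edgeR adjusted p = 0.640). At 5 weeks the ratio of Hpn-/- to WT was 0.802, and at 6 weeks it was 0.745 with the mean of both Hpn-/- libraries. The fold change lay between -0.39 and -0.29 in all 16 alternatives and passed in none of them (lowest edgeR adjusted p = 0.295). As the groups lay apart, leaving out 1 library could hardly turn its sign, and the unchanged sign adds no separate evidence. Of the 75-base windows in Mmp19 transcripts, 76.8% are found in no other gene; the rest match Tmem198b and Gm47093 on the opposite strand, which had a mean of 2.64 CPM in Hpn-/- and 2.75 CPM in WT glands for Tmem198b and 0 counts for Gm47093.

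Mmp23, which encodes a membrane-tethered MMP without the usual hemopexin domain, was at 2.38, 2.57 and 3.15 CPM in Hpn-/- replicates 1, 2 and 3, against 5.13, 2.58 and 3.52 CPM in WT replicates 1, 2 and 3. The 2-week WT library was the highest, and the other WT libraries lay next to the Hpn-/- libraries. The log2 fold change was -0.48 (95% interval -1.01 to 0.04, edgeR adjusted p = 0.775), and without that 2-week library it was -0.18 (edgeR adjusted p = 0.994).

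The gelatinase and its activators had values above or near those of WT. Mmp2 was at 65.6, 68.3 and 48.4 CPM in Hpn-/- replicates 1, 2 and 3, against 65.9, 54.9 and 46.0 CPM in WT replicates 1, 2 and 3. Mmp14 was at 32.6, 47.8 and 33.9 CPM in Hpn-/- replicates 1, 2 and 3, against 39.7, 35.4 and 33.5 CPM in WT replicates 1, 2 and 3. Timp2 was at 111, 97.9 and 69.0 CPM in Hpn-/- replicates 1, 2 and 3, against 94.5, 84.0 and 73.6 CPM in WT replicates 1, 2 and 3. In each of these genes the groups overlapped, and Mmp14 in Hpn-/- replicate 2 stood above the other libraries.

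The log2 fold change was 0.13 for Mmp2 (95% interval -0.22 to 0.48), 0.07 for Mmp14 (-0.26 to 0.40) and 0.14 for Timp2 (-0.23 to 0.51), with edgeR adjusted p of 0.944, 0.972 and 0.942. The 5-week libraries were the lowest in both genotypes for Mmp2 and Timp2. The summed muscle markers given above were also lowest in those libraries (12.8 CPM in Hpn-/- replicate 3 and 40.1 CPM in WT replicate 3) and highest in Hpn-/- replicate 1 (852 CPM), where Timp2 was highest; their part in the result was not tested. The ratio of Mmp2 to Timp2 per kb varied less than either gene, at 0.685, 0.806 and 0.811 in Hpn-/- replicates 1, 2 and 3, against 0.805, 0.755 and 0.722 in WT replicates 1, 2 and 3.

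Timp3 was at 59.4, 42.9 and 47.0 CPM in Hpn-/- replicates 1, 2 and 3, against 49.6, 48.5 and 43.6 CPM in WT replicates 1, 2 and 3. Both its highest and its lowest library were Hpn-/- libraries of 6 weeks, and the log2 fold change was 0.08 (95% interval -0.23 to 0.38, edgeR adjusted p = 0.967). Timp4, the inhibitor known from heart and fat tissue, was at 4.16, 4.13 and 5.07 CPM in Hpn-/- replicates 1, 2 and 3, against 6.05, 3.06 and 5.79 CPM in WT replicates 1, 2 and 3. Its lowest and highest libraries were both WT, and the log2 fold change was -0.17 (95% interval -0.65 to 0.31, edgeR adjusted p = 0.947).

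Timp1, Timp3 and Timp4 each lie inside a synapsin gene (Syn1, Syn3 and Syn2) on the opposite strand, an arrangement that bears on counts if strand was ignored. Cep295nl lies within Timp2 on the same strand, shares 0 exon bases with it and had a log2 fold change of 0.35 (edgeR adjusted p = 0.883). Timp1 shares 0 exon bases with Syn1. Timp3 shares 1733 of its 8144 exon bases with Syn3 and Timp4 shares 90 of 5894 with Syn2. Syn3 had 7 counts over the Hpn-/- and 3 over the WT libraries and Syn2 had 49 and 48, against 2174 and 1724 for Timp3 and 195 and 186 for Timp4.

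The stromelysins had few counts. Mmp3, stromelysin-1, had 25, 30 and 20 counts in Hpn-/- replicates 1, 2 and 3 and 22, 13 and 15 counts in WT replicates 1, 2 and 3. Its level was 1.65, 2.75 and 1.17 CPM in Hpn-/- and 1.57, 1.24 and 1.26 CPM in WT replicates 1, 2 and 3. Hpn-/- replicate 2 was the highest, and the log2 fold change of 0.39 had a 95% interval of -0.32 to 1.09 (edgeR adjusted p = 0.907). Mmp3 shares 65 of its 1727 windows of 75 bases with Mmp10, which had 0 counts.

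Mmp11, stromelysin-3, which is activated inside the cell by furin, was at 1.65, 1.47 and 0.932 CPM in Hpn-/- and at 1.64, 0.956 and 1.17 CPM in WT replicates 1, 2 and 3. The WT values lay within the range of the Hpn-/- values, and the log2 fold change was 0.06 (95% interval -0.65 to 0.77, edgeR adjusted p = 0.993). Mmp11 shares 155 of its 2778 exon bases with Chchd10 on the opposite strand, which was at 42.3 ± 12.3 CPM in Hpn-/- and 46.0 ± 13.8 CPM in WT glands (SD, n = 3 each), far above Mmp11, so its counts are uncertain if strand was ignored. Differences within these intervals were not detectable at this depth.

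**Figure D4:**
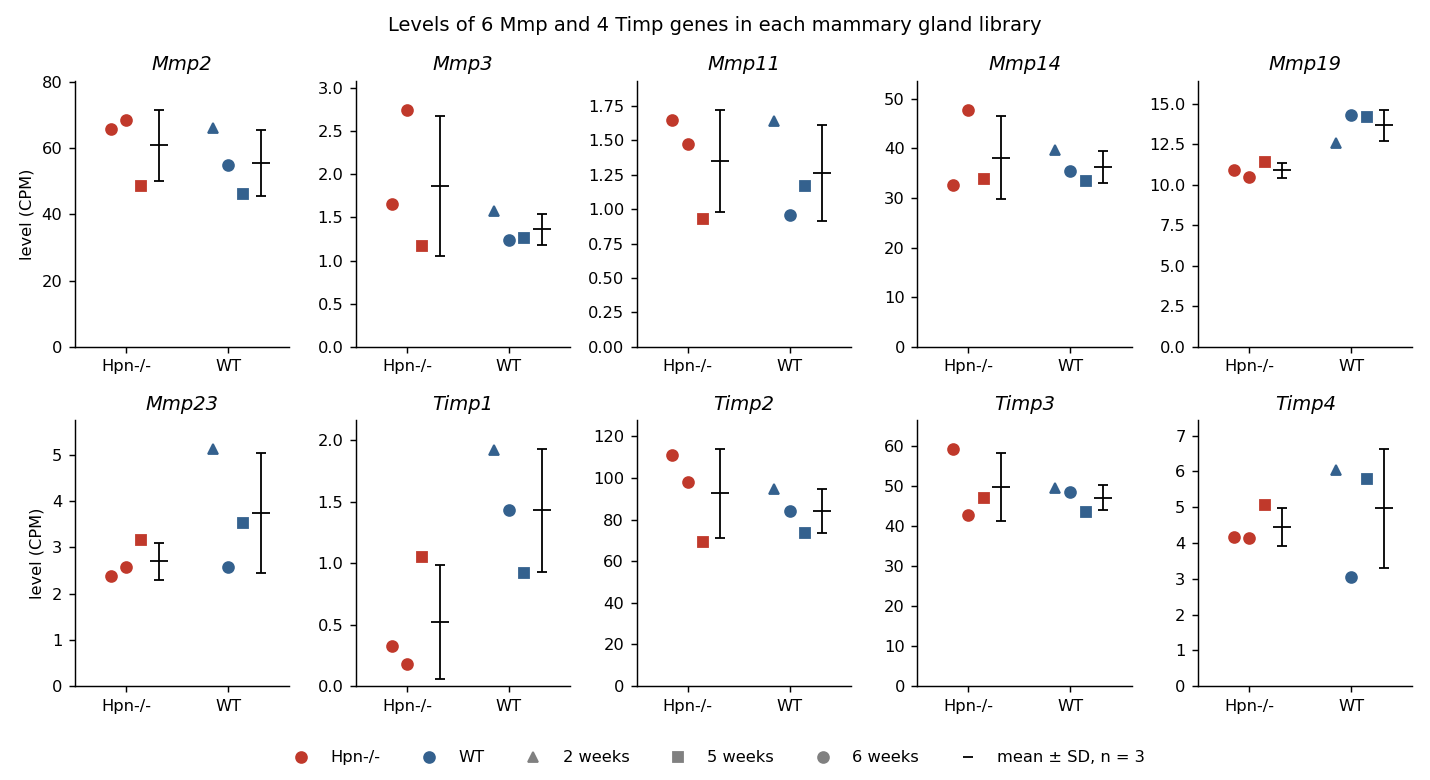
Level in CPM of each member per library, Hpn-/- in red and WT in blue, with marker shape for age and the mean ± SD (n = 3) beside each group; each panel starts at 0. Mmp19 is the panel in which all Hpn-/- points lie below all WT points, and Timp1 shows 2 low Hpn-/- points of 6 weeks.

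Set by age, the members showed no common direction. The Hpn-/- library of 5 weeks lay below the WT library of that age for 6 members, and the mean of the Hpn-/- libraries of 6 weeks lay below the WT library of that age for 3. Mmp19 and Mmp23 were below WT at both ages, and Mmp2, Mmp14 and Timp3 were above it at both. Mmp11 had a ratio of 0.794 at 5 weeks and 1.63 at 6 weeks, and Mmp3 0.926 and 1.77. The 2-week WT library had the highest value of all 6 libraries for Mmp23, Timp1 and Timp4.

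Summed per kb of exon, the 6 Mmp genes came to 30.2 ± 4.41 CPM per kb in Hpn-/- and 29.2 ± 3.83 CPM per kb in WT glands (SD, n = 3 each), and the 4 Timp genes to 31.2 ± 5.64 and 29.8 ± 3.65 CPM per kb. The ratio of the Timp to the Mmp sum was 1.20, 0.910 and 0.997 in Hpn-/- replicates 1, 2 and 3, against 1.00, 1.04 and 1.01 in WT replicates 1, 2 and 3. The WT libraries lay within the range of the Hpn-/- libraries. Timp2 made up 77.2%, 80.3% and 69.4% of the Timp sum in Hpn-/- replicates 1, 2 and 3 and 72.3%, 72.7% and 71.9% in WT replicates 1, 2 and 3, while Timp1 made up 1.01%, 0.660% and 4.63% in Hpn-/- and 6.45%, 5.45% and 3.96% in WT replicates 1, 2 and 3. These sums are of transcripts and leave out the other MMPs.

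Most of the other MMPs were not tested. Of 17 further Mmp genes, 5 were tested, 6 had 0 counts in every library and 0 were called. By sign 4 were higher and 1 lower, where 49.1% of all tested genes were lower. Mmp15, a membrane-type MMP, was the most abundant, at 11.1 ± 0.938 CPM in Hpn-/- and 11.6 ± 1.65 CPM in WT glands (SD, n = 3 each). Mmp9, the other gelatinase, was at 3.52 ± 0.689 CPM in Hpn-/- and 2.61 ± 0.885 CPM in WT glands (log2 fold change 0.42, edgeR adjusted p = 0.839). Mmp28 was at 0.32 (edgeR adjusted p = 0.862) and Mmp17 at 0.32 (edgeR adjusted p = 0.933). Mmp7, known from epithelium, had 1 count over all libraries, Mmp12, the macrophage elastase, had 8, and Mmp13, a collagenase, had 4.

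The related ADAM, ADAMTS and BMP1 metalloproteases had 14 lower and 7 higher members by sign among 21 tested (median log2 fold change -0.11). Of all tested genes 49.1% were lower by sign. In this group 0 were called, while 5 of the 21 were lower at an edgeR unadjusted p under 0.05, beside 2.9% of all tested genes. Adamts2, which removes the propeptide of fibrillar procollagens, was at 33.3 ± 5.79 CPM in Hpn-/- and 46.1 ± 5.60 CPM in WT glands (log2 fold change -0.47, edgeR adjusted p = 0.508). Adam15 was at -0.37 (edgeR adjusted p = 0.567) and Adamts16 at -0.93 (edgeR adjusted p = 0.626). These 3 genes, chosen for their small p, are among 4 of the 21 whose Hpn-/- libraries lay below all WT libraries, as did those of 5.04% of all genes.

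Among 16 tested activators, surface regulators and clearance receptors of MMPs, 10 had lower and 6 higher values and 0 were called. By sign, 49.1% of all tested genes were lower. Plau encodes the urokinase plasminogen activator, whose zymogen hepsin is known to activate, and was at 8.42 ± 0.377 CPM in Hpn-/- and 13.0 ± 1.36 CPM in WT glands (log2 fold change -0.63, edgeR adjusted p = 0.313). The proprotein convertases Pcsk5 and Pcsk6, relatives of furin, were at -0.54 and -0.41 (edgeR adjusted p = 0.508 and 0.569). Lrp1, the endocytic receptor that clears MMP and TIMP complexes, was at 315 ± 84.7 CPM in Hpn-/- and 407 ± 46.1 CPM in WT glands (-0.37, edgeR adjusted p = 0.787).

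The matrix proteins that MMPs cut had 11 of 12 lower values by sign (median log2 fold change -0.32), and 0 were called. Over all tested genes 49.1% were lower. The mean log2 CPM of these matrix genes, centred on all 6 libraries, was -0.29, -0.31 and 0.06 in Hpn-/- replicates 1, 2 and 3. In WT replicates 1, 2 and 3 it was 0.38, -0.06 and 0.22, so the groups overlapped and the 2-week WT library was highest. Vcan, a large proteoglycan, was at 14.1 ± 2.96 CPM in Hpn-/- and 23.2 ± 2.36 CPM in WT glands (-0.71, edgeR adjusted p = 0.300), Col1a2 was at -0.53 (edgeR adjusted p = 0.635) and Col3a1 at -0.50 (edgeR adjusted p = 0.640). Of 12 tested factors that induce MMP genes, 9 had higher and 3 lower values (median 0.03), and 0 were called. Ets1, a transcription factor, was at 66.5 ± 10.3 CPM in Hpn-/- and 52.0 ± 7.65 CPM in WT glands (0.36, edgeR adjusted p = 0.670). The AP-1 subunit genes Jun and Fosl2 were at 0.30 (edgeR adjusted p = 0.717) and -0.18 (edgeR adjusted p = 0.869).

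The genes most like Timp1 and Mmp19 over the 6 libraries were found by the root mean square difference of centred log2 CPM among protein-coding genes of at least 5 CPM. For Timp1 they were Plod2, a lysyl hydroxylase, at 0.203, Thbs2, a matricellular protein, at 0.277 and Greb1, an estrogen-induced gene, at 0.287, against a median of 0.941 over 6547 genes. Plod2 was at 4.78 CPM in Hpn-/- and 10.2 CPM in WT glands, Thbs2 at 42.9 and 81.8 CPM and Greb1 at 3.06 and 7.03 CPM. For Mmp19 they were Mapkbp1 at 0.0421, Aldh5a1 at 0.0422 and Podxl at 0.0474, against a median of 0.235. A gene with no change over the libraries would lie at 0.93 from Timp1 and at 0.176 from Mmp19. The medians thus depend on the spread of Timp1 and Mmp19 themselves and are no independent measure of likeness. The Timp1 profile rests on 2 to 27 counts per library. These distances describe 6 libraries that differ in genotype, age and composition, and say nothing of shared control.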

How the data were processed

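Total RNA was depleted of ribosomal RNA, made into libraries with a directional kit and sequenced as single-end reads of 75 bases, per the labels' protocols. The deposited table holds raw read counts per gene, not normalized, for 6 libraries. Per the submitters' processing notes the tools were STAR 2.6.0c, featureCounts, Trimmomatic, bcl2fastq and DESeq2, with the build GRCm38; no strand setting of the counting is given there. All 55450 identifiers matched GENCODE M21, from which symbols, exon lengths and overlaps were taken. Counts were tested in R 4.3.3 with edgeR 4.0.16: filterByExpr (minimum count 10, minimum total 15) left 12520 genes, libraries were scaled by TMM, and a robust quasi-likelihood model with genotype as its only term gave two-sided p-values, adjusted by Benjamini-Hochberg over all tested genes. An adjusted p under 0.05 was called. Log2 fold changes had a median standard error of 0.192. Alternatives were RLE and upper quartile scaling, other count filters, DESeq2 1.42.0, limma-voom (limma 3.58.1), age as a covariate, a block for the replicate number, leaving out ribosomal RNA loci and leaving out each library; the genotype by age interaction was added after seeing the data. Promoter windows come from RefSeq (GRCm38.p6). The members and the gene lists were chosen with earlier results of these data known. Named genes are the 10 members, of each other list the 3 of smallest p and the most abundant, and the 3 genes most like the Mmp and the Timp gene of smallest p; for marker lists the summed level is given, and Hpn, genes that share bases with a member, and Mmp7, Mmp12 and Mmp13 were named besides, the last 3 chosen after their values were seen.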

Additional observations from a re-analysis of the deposited data

How the results depend on the processing

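No member was called under any alternative except without Hpn-/- replicate 3, where 1 member, Timp1, was lower (log2 fold change -2.39); leaving out each library gave from 0 to 1 called members. Over all genes tested, 2 were higher and 0 lower as reported. These counts were 76 and 24 with no count filter, 8 and 0 with DESeq2, 0 and 0 with limma-voom, 0 and 0 when age was a covariate over all 6 libraries, and 3 and 1 with age as a covariate in the 5 and 6 week libraries. Leaving out each library gave from 0 to 89 higher and from 0 to 111 lower genes, both largest without Hpn-/- replicate 3. With the replicate number as a block they were 8 and 1, and 0 members were called. Deviations of libraries of the same number correlated at 0.167, 0.0732 and 0.368 for replicates 1, 2 and 3. The largest correlations with another number were lower, at 0.127, 0.0671 and -0.17. Replicates 2 and 3 also share their age between the genotypes, at 6 and 5 weeks. The model as reported has no term for the number, and whether the numbers pair the libraries was not tested. The sign turned for Timp4 when age was a covariate (0.11 over all 6 libraries, 0.10 over those of 5 and 6 weeks) and without WT replicate 1 (0.00), for Mmp11 without Hpn-/- replicate 1 (-0.15) or WT replicate 2 (-0.09), for Timp2 and Timp3 without Hpn-/- replicate 1 (-0.03 and -0.08) and for Mmp14 without Hpn-/- replicate 2 (-0.12). Leaving out each library put Timp4 between -0.40 and 0.00, Mmp11 between -0.15 and 0.31, Timp2 between -0.03 and 0.31, Timp3 between -0.08 and 0.17 and Mmp14 between -0.12 and 0.16. None of these values passed the test. Mmp19, Mmp23 and Timp1 kept their sign wherever they were tested, which for Mmp19 follows largely from its groups lying apart. Mmp2 fell to 0.00 without WT replicate 3 and Mmp3 to 0.04 without Hpn-/- replicate 2. Why the counts move was not tested. Low depth limits the precision for Mmp3, Mmp11 and Timp1.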
